A study of Homo sapiens with 4 samples.

Results

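PIEZO1 and PIEZO2 encode the Piezo channels, large proteins of the plasma membrane that open when the membrane is stretched. Their m7G methylation peaks were examined in HL60 cells, a human promyelocytic leukemia line, and in HL60/MX2 cells, its drug-resistant derivative. The peaks were chosen by position. Every listed peak that overlapped an exon of PIEZO1 or PIEZO2 on the same strand by at least 1 bp was taken, in the GENCODE annotation of hg19. Of the 16192 peaks in both lists, 11 met this rule, 9 of the 8070 peaks in HL60 and 2 of the 8122 peaks in HL60/MX2. All 11 lay in PIEZO2, and PIEZO1 carried 0 peaks in either list. For comparison, 27.0% of all 20175 protein-coding genes carried at least 1 peak in HL60 and 29.5% did in HL60/MX2. At least 9 peaks were listed for 0.0347% of them in HL60, and at least 2 for 7.46% in HL60/MX2. The genes had been picked with these peaks known, so the counts describe the lists and were not tested.

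Each cell line gave 1 library enriched with an m7G antibody and 1 input library, 4 in all. HL60 is labelled wild type and HL60/MX2 is labelled drug-resistant, and no treatment of the cultures is given. In both lines the RNA was selected by oligo(dT), decapped and fragmented before the antibody was added, so the 5' cap itself had been removed. The analysis used the peak list of the enriched library of each line. With 1 such library per line, the spread between replicates is unknown. A peak is listed with its position, strand and score but with no read count, and the sequencing depth under it is therefore unknown. The scale of the score is not named. The lowest score was 50 for HL60 and 50.03 for HL60/MX2. Scores were ranked only within their own list. RNA levels of the genes were not analysed here, and a gene with less RNA cannot be told apart from a gene with less m7G.

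Piezo channels are trimers. The N-terminal part of each subunit forms a curved blade in the membrane, and the C-terminal part forms the central pore with a cap above it. PIEZO1 is known from red blood cells, the endothelium and immune cells, where it passes calcium when the membrane is under tension. PIEZO2 is known as the channel of light touch and of proprioception in sensory neurons and Merkel cells.

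PIEZO2 (ENSG00000154864.14_14) lies on the minus strand of chromosome 18 of hg19 from 10666480 to 11149568, a span of 483 kb. Its longest coding transcript, PIEZO2-216, has 56 exons and 10859 nt, of which 8595 nt are coding, for 2864 codons before the stop. In HL60, 7 of the 9 peaks lay in the CDS of this transcript, in 7 different exons, and the other 2 lay in an alternative last exon. In HL60/MX2, both peaks lay in the CDS. The 5'UTR, the start codon, the stop codon and the 3'UTR of PIEZO2-216 carried 0 peaks in either list. In the study, the CDS was the region with the most m7G peaks, followed by the 3'UTR. The share of each class over all listed peaks is not given here, so these counts are not read as a trait of PIEZO2. The HL60 peaks covered 973 nt of this transcript, 8.96% of its length, and the HL60/MX2 peaks covered 220 nt, 2.03%.

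The sequences of 4 stretches are shown, read from the hg19 genome on the strand of the gene. The exon that carried a peak in both lists is given first, with the stretch that both peaks covered in capitals. The other 3 are the HL60 peaks with the highest scores in the CDS and the HL60/MX2 peak with the higher score. In these 3 the capitals mark every match to the motifs that the study named, CTGG or CTGT followed by A or G, and GGAA followed by A or G.
Exon 15, whole, chr18:10789077-10789363: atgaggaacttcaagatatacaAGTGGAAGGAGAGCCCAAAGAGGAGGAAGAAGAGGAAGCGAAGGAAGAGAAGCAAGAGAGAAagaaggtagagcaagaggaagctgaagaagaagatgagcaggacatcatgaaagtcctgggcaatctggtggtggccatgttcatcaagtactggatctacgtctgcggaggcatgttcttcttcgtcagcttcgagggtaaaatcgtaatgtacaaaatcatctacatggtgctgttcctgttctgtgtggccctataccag
Exon 8, HL60 peak, chr18:10807110-10807272: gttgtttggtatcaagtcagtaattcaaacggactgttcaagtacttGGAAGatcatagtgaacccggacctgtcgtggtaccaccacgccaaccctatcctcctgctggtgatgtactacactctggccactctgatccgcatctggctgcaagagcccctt
Exon 34, HL60 peak, chr18:10736602-10736708: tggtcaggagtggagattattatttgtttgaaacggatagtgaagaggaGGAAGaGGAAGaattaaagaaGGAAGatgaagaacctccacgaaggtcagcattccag
Exon 52, HL60/MX2 peak, chr18:10680233-10680368: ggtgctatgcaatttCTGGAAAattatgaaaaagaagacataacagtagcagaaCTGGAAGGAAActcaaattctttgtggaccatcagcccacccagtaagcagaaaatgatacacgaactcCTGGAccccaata

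From the 5' end of the mRNA, the first HL60 peak covered the whole of exon 8, 163 bp with a score of 910.85, over codons 306 to 360. The second lay in exon 15, where it covered 265 of the 287 nt up to the 3' end of the exon, with a score of 55.85. The third covered the first 62 nt of exon 28, chr18:10752816-10752877, with a score of 55.77. Exons 1 to 7, which include the start codon, held no listed peak of either line, so the most 5' peak of HL60 began 17.5% of the way along the mRNA.

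In the middle of the mRNA, the whole of exon 34 was covered by a peak of 107 bp with a score of 1049.89, the highest of the gene in HL60, over codons 1570 to 1605. Exon 39 was also covered whole, by a peak of 167 bp at chr18:10714762-10714928 with a score of 130.83. The first 154 nt of exon 42 carried a peak with a score of 203.83, at chr18:10704497-10704650. The last HL60 peak on this transcript covered the final 55 nt of exon 49, chr18:10689653-10689707, with the lowest score of the gene, 54.55. The peaks with the highest scores on this transcript, in exons 8 and 34, thus had the low-scoring peaks of exons 15 and 28 between them.

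In HL60/MX2, the first peak covered the first 84 nt of exon 15 with a score of 715.91, over codons 628 to 656. The second covered the first 136 of the 173 nt of exon 52 with a score of 1193.35, over codons 2594 to 2639, toward the C-terminal end of the channel. No HL60 peak lay in exon 52. The nearest on the mRNA was the exon 49 peak, with 282 nt between them.

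**Figure D1:**
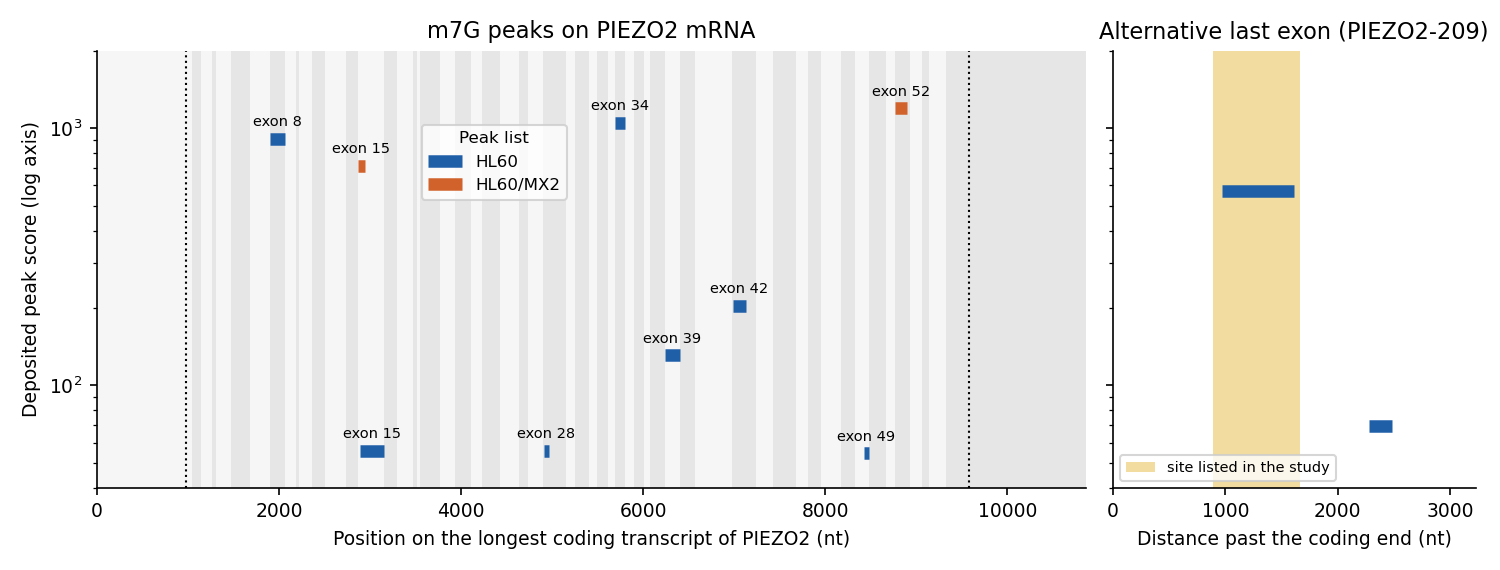
The horizontal axis of the left panel is the position on PIEZO2-216 in nt, with exons as alternating bands and dotted lines at both ends of the coding sequence, and the right panel shows the distance past the coding end of PIEZO2-209. The vertical log axis is the deposited score, bars are peaks (blue HL60, orange HL60/MX2) and the yellow band is the site listed for PIEZO2, which holds the HL60 peak with a score of 571.07. HL60 peaks stand in 7 coding exons and HL60/MX2 peaks in exons 15 and 52.

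Exon 15 was the position in PIEZO2 that both lines shared. Few peaks of either list were shared, since 495 peaks of each list overlapped the other on the same strand, 6.13% of HL60 and 6.09% of HL60/MX2 peaks. The overlap in exon 15 was 62 bp, from 10789280 to 10789341, which was 73.8% of the HL60/MX2 peak and 23.4% of the HL60 peak. Within the exon, the HL60/MX2 peak began at the 5' end and the HL60 peak began after 22 nt and ran to the 3' end. The scores stood far apart in their lists. The HL60 peak was above 3.83% of its list and the HL60/MX2 peak was above 88.1% of its list. The count of shared PIEZO2 peaks was 0 when the overlap had to reach 50% of both peaks, and 0 among peaks at or above the median score.

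The shared 62 nt, in capitals above, have a GC content of 50%, against 46.7% for the whole exon. The HL60/MX2 peak held 4 matches to GGAA followed by A or G, and the HL60 peak held 5. Of all windows of 84 nt in the coding sequence of PIEZO2, 32.6% held at least 1 such match, and of windows of 265 nt 72.5% did. The HL60/MX2 peak held 0 matches to CTGG or CTGT followed by A or G, and the HL60 peak held 3. At least 1 match of this kind was in 49.3% of windows of 84 nt and 92.6% of windows of 265 nt. A match describes the letters and is not a mapped m7G base.

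**Figure D2:**
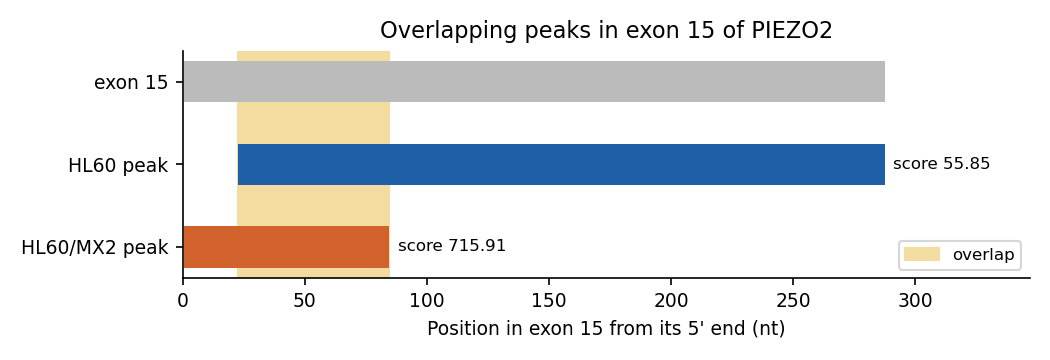
The horizontal axis is the position in exon 15 of PIEZO2 in nt from its 5' end, and bars are the exon (grey), the HL60 peak (blue) and the HL60/MX2 peak (orange) with their scores. The yellow band is the overlap, nt 23 to 84 of the 287 nt.

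The other printed peaks held different numbers of these motifs. The exon 34 peak of HL60 held 3 matches to GGAA followed by A or G and 0 to the CTG motif. Among windows of 107 nt of the coding sequence, 39.6% held the GGAA motif and 59.3% the CTG motif. The exon 52 peak of HL60/MX2 held 3 of each. Among windows of 136 nt of the coding sequence, 47.6% held the GGAA motif and 68.3% the CTG motif. The exon 8 peak of HL60 held 1 match to the GGAA motif and 0 to the CTG motif. Of windows of its length, 54.3% held the GGAA motif and 75.3% the CTG motif. Over all listed peaks, the GGAA motif occurred in 43.9% of HL60 and 43.0% of HL60/MX2 peaks, and in PIEZO2 it occurred in 4 of 9 and in 2 of 2. The CTG motif occurred in 56.0% of HL60 and 57.2% of HL60/MX2 peaks, and in PIEZO2 in 3 of 9 and 1 of 2.

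The remaining 2 HL60 peaks lay outside PIEZO2-216. They were in exon 4 of PIEZO2-209, the last exon of an incomplete coding transcript with 4 exons, and of the 21 annotated transcripts of the gene 1 has an exon under these peaks. This last exon is 3440 nt long, from 10737661 to 10741100, and most of it is the 3'UTR of PIEZO2-209. It holds exon 33 of PIEZO2-216, of 72 nt, and part of the intron of 4320 bp between exons 33 and 34, and both peaks lay in the intron part. The larger peak was 645 bp, chr18:10739274-10739918, with a score of 571.07, and it lay 968 to 1612 nt past the coding end. The smaller was 209 bp, chr18:10738401-10738609, with a score of 69.86, at 2277 to 2485 nt. Their GC content was 34.4% and 30.1%, while the other 9 peaks of the gene had between 41.2% and 52.6%.

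The site that the study lists for PIEZO2 in its table of differential peaks was compared by position alone. It is 779 bp long and holds the whole of the larger HL60 peak, with 52 bp of the site below the start of the peak and 82 bp above its end. It therefore lay in the 3'UTR of PIEZO2-209 and in an intron of PIEZO2-216. No HL60/MX2 peak overlapped it, and the nearest listed one was 49279 bp away, the peak in exon 15. The 3 HL60 peaks in exon 34 and in the alternative exon had consecutive running numbers, 350319 to 350321, in the names that the lists give to peaks.

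The scores in HL60 ran from a peak above 2.4% of the list to a peak above 98.5% of it. Of the 9 peaks, 4 had a score under 100, as did 21.5% of all HL60 peaks, and these lay in exons 15, 28 and 49 and in the alternative exon. At the other end, the peaks in exons 8 and 34 and the larger peak of the alternative exon were above 97.8%, 98.5% and 92.0% of the list. The median of the 9 scores was 131, against 196.8 in the whole HL60 list. Both HL60/MX2 peaks were high in their list, the exon 52 peak above 96.0% of it, where the median of the list was 259.7. No PIEZO2 peak of HL60/MX2 had a score under 100, as 16.8% of its list did.

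**Figure D3:**
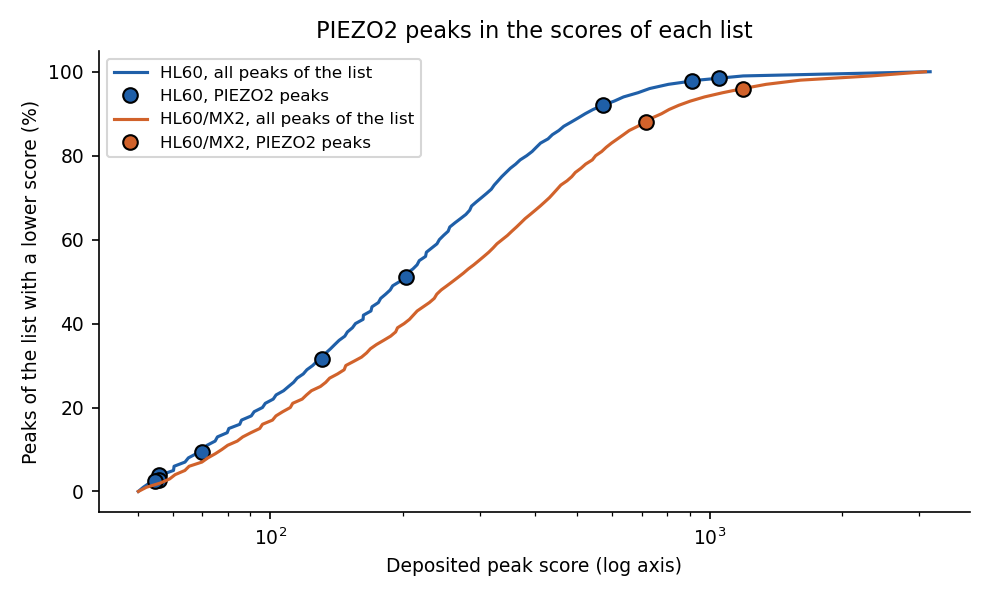
The horizontal log axis is the deposited score and the vertical axis is the percentage of the same list with a lower score. Lines are all peaks of HL60 (blue) and HL60/MX2 (orange), and points are the PIEZO2 peaks. HL60 points run from 54.55 to 1049.89, with 4 under 100, and the HL60/MX2 points are at 715.91 and 1193.35.

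All 11 peaks lay wholly inside exons. The authors kept peaks over protein-coding exons. Whether they also cut peaks at exon ends is not stated, so a called region may have run past the listed ends. The 9 peaks on PIEZO2-216 all had an exon end as their start or end, and 3 of the 7 in HL60 were whole exons. Of all listed peaks over a longest coding transcript, 69.8% in each list began or ended at an exon end, and 22.9% in HL60 and 19.4% in HL60/MX2 were whole exons. Of the HL60/MX2 peaks, both began at the 5' end of their exon. No exon of a gene on the opposite strand lay under any of the 11 peaks in the annotation. Elsewhere, exons of 2 long noncoding RNAs on the opposite strand overlapped PIEZO2 exons and exons of 4 genes, CTU2 and 3 long noncoding RNAs, overlapped PIEZO1 exons, and these carried 0 peaks in either list. Since peaks were kept over protein-coding exons, the 0 of the noncoding RNAs was largely set by that selection and is not read as a result. The median length was 163 bp in HL60, against 129 bp in the whole list, and the HL60/MX2 peaks were 84 and 136 bp, on each side of the median of 133 bp in their list.

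Each listed peak is named with a running number, and these numbers rose along each chromosome in both lists. If each number stands for a region called before the selection on exons, a reading that nothing in the lists states, the numbers also describe the regions that were dropped. Between the first and the last listed peak in PIEZO2, a stretch of 118 kb in HL60, there were 62 numbers, of which 9 were listed and 53 were not. In HL60/MX2, the corresponding stretch of 109 kb held 59 numbers, of which 2 were listed and 57 were not. Each stretch begins and ends at a listed peak, so its ends are listed by construction, and the 2 listed numbers of HL60/MX2 are these ends. Over all of chromosome 18, 0.754% of the numbers were listed in HL60 and 0.806% in HL60/MX2. Annotated exons made up 11.7% and 11.9% of these stretches.

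The density of the numbers in the gene was 519 per Mb in HL60 and 532 per Mb in HL60/MX2, while the listed peaks were 9 and 2. Over the whole of chromosome 18 the numbers rose by 432 per Mb in HL60 and by 272 per Mb in HL60/MX2. Among genes with listed peaks at least 50 kb apart, the median was 372 per Mb over 563 genes in HL60 and 304 per Mb over 472 genes in HL60/MX2. PIEZO2 was above 97.0% and 99.2% of these genes. Since the lists without the exon filter were not analysed here, the positions and scores behind the other numbers are unknown.

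**Figure D4:**
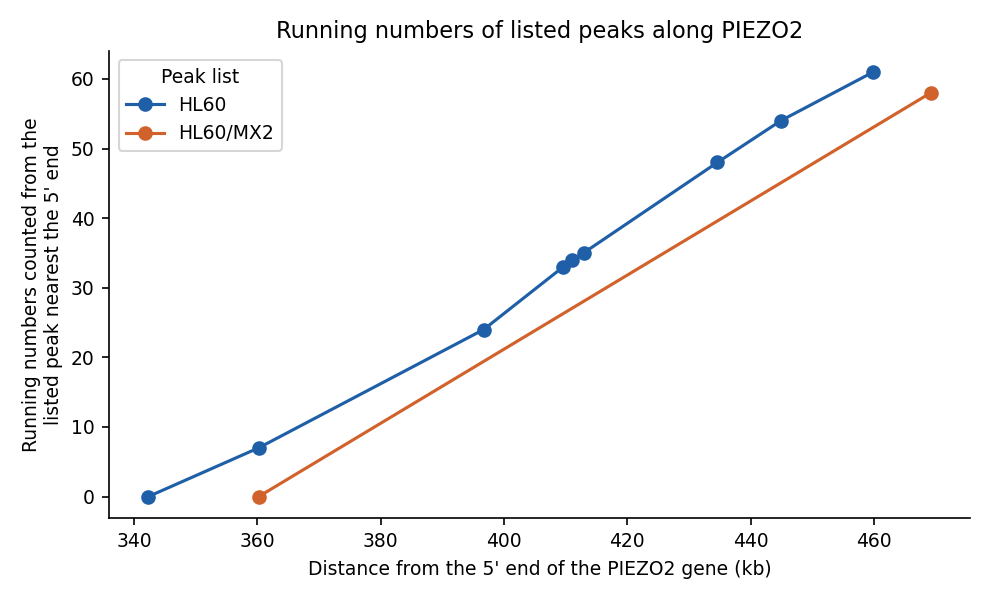
The horizontal axis is the distance from the 5' end of the PIEZO2 gene in kb, and the vertical axis counts the running numbers from the listed peak nearest that end. Points are the listed peaks of HL60 (blue, 9) and HL60/MX2 (orange, 2), and the lines rise by 519 and 532 per Mb.

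PIEZO1 (ENSG00000103335.22_13) lies on the minus strand of chromosome 16 from 88781746 to 88851628, a span of 69.9 kb. Its longest coding transcript, PIEZO1-201, has 51 exons and 8089 nt with 7563 nt of CDS, so it resembles PIEZO2-216 in its number of exons and the length of its coding sequence. The transcripts differ in GC content, 64.3% in PIEZO1 and 48.5% in PIEZO2. With 0 listed peaks, PIEZO1 had no score in either list. The lists begin at a score of about 50, so a weaker enrichment in PIEZO1 would not be seen in them.

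The nearest listed peaks of HL60 around PIEZO1 were in BANP, 781 kb from the gene, and in ACSF3, 336 kb from it. In HL60/MX2 they were in CYBA, 64.3 kb from it, and in SPG7, 752 kb from it. Between these neighbours the running numbers rose by 99.4 per Mb in HL60 and 134 per Mb in HL60/MX2, against 271 and 241 per Mb over chromosome 16. Of stretches of at least 500 kb between neighbouring listed peaks, 0.768% of 1563 in HL60 and 1.07% of 1497 in HL60/MX2 had a lower density. The medians of these stretches were 347 and 285 per Mb. The part of GC content in the PIEZO1 counts was not tested.

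The genes with at least 9 peaks in HL60 numbered 7 and were TTN, LRP1B, MUC16, MUC19, NEB, PIEZO2 and SPAG17. Nothing is read from this rank, since PIEZO2 was chosen for its peaks. PIEZO2 was also 1 of 4 genes whose count was lower by 7 or more in HL60/MX2, with TTN, LRP1B and SPAG17, and 1 gene, VPS13D, had a count higher by 7 or more, from 0 to 9 peaks. Over all genes, 3601 had fewer peaks in HL60/MX2 and 4035 had more. Of the 7 genes, NEB went from 9 to 14 peaks and MUC16 from 9 to 12. These genes were named after their values were seen.

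Genes of many exons more often carried a peak. With 50 or more exons in the longest coding transcript, the share of the 180 genes with a peak was 73.3% for HL60 and 75.6% for HL60/MX2, and PIEZO1 was among those without one in both lists. By the length of their exons, PIEZO2 ranked 260 and PIEZO1 ranked 1824 of all genes. When transcripts were cut into 5 equal groups by GC content, PIEZO1 lay in the highest group, where 10.7% of genes carried a peak in HL60 and 19.6% did so in HL60/MX2. PIEZO2 lay in the middle group, where the shares were 31.1% and 32.9%. Among the 27 genes with 50 or more exons that were in the highest GC group, 44.4% and 66.7% had a peak.

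**Figure D5:**
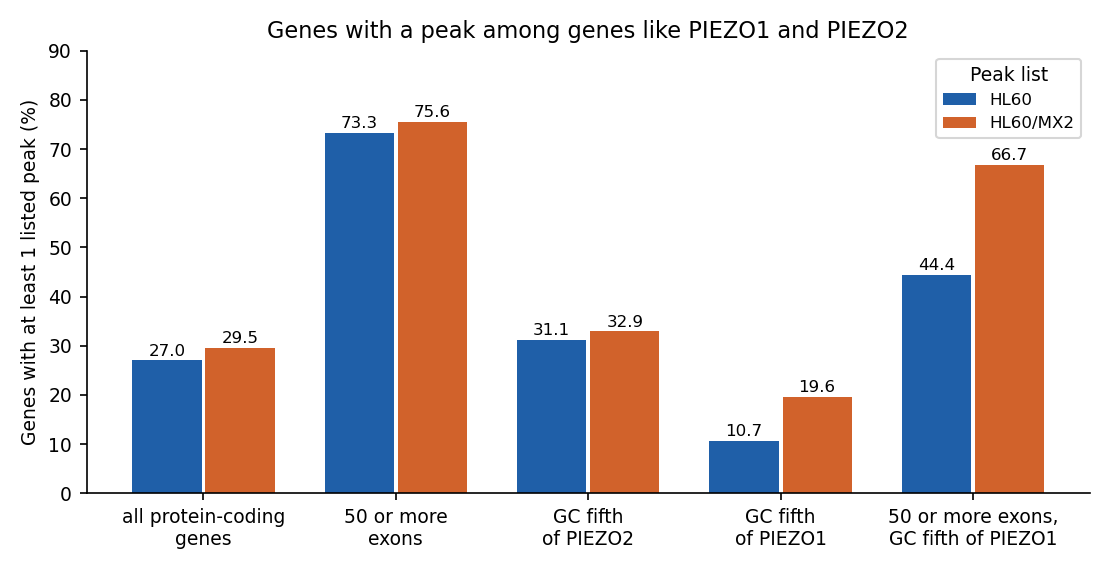
Bars are the percentage of genes with at least 1 listed peak in HL60 (blue) and HL60/MX2 (orange), for all protein-coding genes and for genes grouped by number of exons or by transcript GC content. The shares are highest with 50 or more exons, 73.3% and 75.6%, and lowest in the GC group of PIEZO1, 10.7% and 19.6%.

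On chromosome 18, 9 of the 253 peaks of HL60 were in PIEZO2, and in HL60/MX2 2 of 170 were. The ratio of HL60/MX2 to HL60 peaks on the chromosome was 0.672, and without PIEZO2 it was 0.689, from 244 and 168 peaks. On the 5' side of the gene, the closest listed peak was in ANKRD62 in HL60, 980 kb away, and in MPPE1 in HL60/MX2, 753 kb away.

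The genes related to Piezo function were taken as a list of 16. They comprise other channels and polycystins gated, or held to be gated, by membrane force, auxiliary proteins of the Piezo channels, and a pump and a potassium channel linked to PIEZO1. In HL60, 6 of the 16 (37.5%) carried a peak, and in HL60/MX2 3 did (18.8%), beside the 27.0% and 29.5% of all genes. TMC2 and KCNK10, 2 of the 16, carried peaks in each line, and the peaks of the 16 genes had no overlap between the lines, as was so for most peaks of both lists.

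TMC2 belongs to the transduction channel family of the inner ear hair cells. In HL60 its exon 13 was covered whole by a peak of 150 bp with a score of 385.63. In HL60/MX2 it carried a peak of 49 bp at the start codon with a score of 607.2 and a peak outside its longest coding transcript with a score of 440.53. TMC1, the other family member in the list, carried 0 peaks.

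The potassium channels of the list with a stretch response are KCNK2, KCNK4 and KCNK10. KCNK10 carried 2 peaks in HL60, in the 3'UTR with a score of 842.85 and over the whole of exon 6 with a score of 90.44. In HL60/MX2 it carried 3, in another part of the 3'UTR with a score of 797.87, over the whole of exon 4 with a score of 540.63, and outside the longest coding transcript with a score of 141.19. KCNK2 carried 1 peak, in its 3'UTR in HL60, with a score of 69.86, and KCNK4 carried 0.

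The TMEM63 proteins are channels gated by membrane tension. TMEM63A carried 1 HL60 peak of 6 bp in exon 21 with a score of 94.49. TMEM63C carried 2 in HL60, of 13 bp in exon 10 with a score of 270.78 and of 208 bp outside its longest coding transcript with a score of 231.33. TRPV4, a calcium-permeable channel of the TRP family, carried 1 HL60 peak of 200 bp in exon 2 with a score of 74.82. None of these 3 genes carried a peak in HL60/MX2.

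KCNN4, the calcium-activated potassium channel that opens when PIEZO1 lets calcium into red blood cells, carried 1 peak, in HL60/MX2. It covered 555 bp at the start codon with a score of 573.27. The auxiliary subunits MDFI and MDFIC, the stomatin-like protein STOML3, the calcium pump ATP2A2, the polycystins PKD1 and PKD2, and TMEM63B carried 0 peaks in either list.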

How the data were processed

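Both enriched libraries were used through their peak lists, while input libraries and RNA levels were not analysed here. According to the submitters' processing notes and the methods, the authors trimmed reads with Cutadapt 1.9.3, aligned them to hg19 with Hisat2 2.0.4, called peaks with MACS, and retained those over protein-coding exons. STAR was used by the authors on the input libraries to identify mRNAs. By the methods, differentially methylated sites were found with diffReps, a program other than the one that called the peaks. The version and settings of MACS are not given in the sources used here. The score of each peak was used as the authors deposited it, and the depth is unknown. Whether the strand of a peak came from the reads or from the gene is not given either.

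Starts were converted to count from 1. The reference was GRCh37, whose chromosome 1 has 249250621 bp, with GENCODE release 44 placed on it (20175 protein-coding genes). A peak was given to every gene whose exons it overlapped on the same strand. Its class was that of its largest overlap with the longest coding transcript, where peaks within 100 nt of a start or stop codon formed classes of their own. Motifs were searched on the gene strand, and windows of equal length were taken at every position of the PIEZO2 coding sequence. GC content was that of the longest coding transcript of 19833 genes.

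The members and the list of 16 related genes were chosen with earlier results of these data known. The genes named were both Piezo genes and every related gene with a peak, with genes that overlap a Piezo exon. Related genes without a peak were named to account for the whole list, and the genes with many peaks and those nearest to a Piezo gene were named after their values were seen. With 1 library per line, nothing was tested between them. The alternatives tried concerned the score, the peak length, the strand, the exons, the gene assignment, the overlap and the region classes. The assignment of peaks to genes on the same strand, their mRNA positions and their region classes were tested on simulated peaks. The other steps were not tested in this way. Python 3.11.15, numpy 2.4.6, scipy 1.17.1 and matplotlib 3.10.9 were used.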

Additional observations from a re-analysis of the deposited data

How the results depend on the processing

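Of 47 values recomputed under the alternatives for 9 results, 41 were within 1.5 times the reported count. With peaks at or above the median score of their list, PIEZO2 kept 4 HL60 peaks and 3 of the related genes had a peak in HL60, and at or above the upper quartile these were 3 and 2. The peaks of HL60/MX2 in PIEZO2 numbered 2 under every alternative run for that count. PIEZO1 had 0 peaks in both lists with the strand ignored, the only alternative run for it that was able to add peaks. The other alternatives only remove peaks, so its 0 was fixed in advance and does not test the result. The PIEZO1 values are nevertheless counted among the 41. The shared peak in exon 15 was lost, giving 0, when the overlap had to be 50% of both peaks and when peaks under the median score were left out. With exons of the longest coding transcript alone, the alternative exon falls outside, which left 7 HL60 peaks. The unknown depth limits every count, and there was no replicate library to leave out. No paired analysis was possible because each cell line has 1 enriched library.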
